A study of Homo sapiens with 6 samples.

Results

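FAT1 and the other giant atypical cadherins were examined in SW480 cells, an established human colorectal cancer line, that overexpressed either POU5F1B or green fluorescent protein (GFP). The set held 10 genes, chosen by symbol from the 63677 identifiers of the count tables: the FAT genes FAT1, FAT2, FAT3 and FAT4, the Dachsous genes DCHS1 and DCHS2, the Four-jointed gene FJX1, and CELSR1, CELSR2 and CELSR3. Of these, 8 passed the filter on low counts and could be tested, while FAT3 and FAT4 did not. The set was assembled around FAT1, which had stood out in the POU5F1B against GFP contrast of these same libraries. The values of FAT1 in that contrast are therefore a description and carry no test, and the other 9 genes are relatives and partners of FAT1.

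In this experiment, 3 libraries came from SW480 cells transduced with a doxycycline-inducible GFP vector, the control, and 3 from SW480 cells with the same kind of vector for POU5F1B, a retrogene copy of the pluripotency gene POU5F1. Both groups were kept in 1 µg/mL doxycycline for 72 h before harvest, so that all libraries share the drug. Per the study's methods, the GFP and POU5F1B proteins carried an HA tag, and the transduced cells were selected with puromycin. Polyadenylated RNA was sequenced. Nothing in the labels says whether the libraries of a group came from separate cultures, so the spread between them may be technical. In bulk RNA, fewer cells that express a gene and less of its RNA per cell cannot be told apart.

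Atypical cadherins carry far more extracellular cadherin repeats than classical cadherins such as E-cadherin, and their cytoplasmic tails do not follow the classical plan of catenin binding. FAT and Dachsous proteins bind each other between neighbouring cells, a contact that the Golgi kinase Four-jointed tunes by phosphorylating their cadherin repeats, and in flies this system governs tissue growth through the Hippo pathway as well as planar polarity. The CELSR proteins, relatives of fly Flamingo, are cadherins with the membrane region of an adhesion G protein-coupled receptor and belong to the core planar cell polarity machinery. FAT1 itself is widely expressed in epithelia, binds Ena/VASP actin regulators through its tail, and is recurrently mutated in squamous and other cancers.

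The libraries held between 10767947 and 12787637 counts, and 14286 genes were tested. POU5F1B had 6, 5 and 1 counts in GFP replicates 1, 2 and 3 and 15027, 11393 and 1458 in POU5F1B replicates 1, 2 and 3, so that the labels fitted the overexpressed gene. The mean CPM of POU5F1B replicates 1 and 2 was 9.22 times that of replicate 3. POU5F1B is close in sequence to POU5F1, so its counts are uncertain where reads fit both. GFP replicate 3 stood apart from the other GFP libraries, with a chi-square per degree of freedom of 97.8 and 86.7 against replicates 1 and 2, compared with 4.51 between these. POU5F1B replicate 3 likewise stood apart in its group, with 18.7 and 22.3 against replicates 1 and 2, compared with 5.71 between these. No pair of libraries within a group agreed within sampling noise. Of 9 colorectal epithelial markers, 8 were tested, with KRT8 between 35126 and 48850 counts and KRT18 between 37704 and 47655. CDH17 had 0 or 1 counts in 4 of the 6 libraries, but 77 in GFP replicate 3 and 24 in POU5F1B replicate 3. The genes of the set are given by library below, and values without the replicate 3 libraries stand beside the results that they change.

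To show the DNA in front of the genes whose levels are described in most detail, the 250 bases before their transcription start are printed from RefSeq (GRCh38.p14), whose table held a start for 6 of the 10 genes and 2 starts for FAT1, of which the upstream one is shown. Each was located in GRCh37, the build of the count tables, by its single exact match. For FAT1 the RefSeq start lies inside the gene span given below, so the last bases of its stretch fall within that span. Capitals mark GC boxes (GGGCGG, or CCGCCC on the other strand) and a cyclic AMP response element (TGACGTCA, its own reverse), searched on both strands.

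FAT1, chr4:187647851-187648100, minus strand: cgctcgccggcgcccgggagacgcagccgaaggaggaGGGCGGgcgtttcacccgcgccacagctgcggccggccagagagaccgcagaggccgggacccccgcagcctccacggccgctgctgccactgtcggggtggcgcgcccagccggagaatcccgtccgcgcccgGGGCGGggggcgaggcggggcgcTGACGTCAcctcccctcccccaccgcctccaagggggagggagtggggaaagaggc
CELSR2, chr1:109791911-109792160, plus strand: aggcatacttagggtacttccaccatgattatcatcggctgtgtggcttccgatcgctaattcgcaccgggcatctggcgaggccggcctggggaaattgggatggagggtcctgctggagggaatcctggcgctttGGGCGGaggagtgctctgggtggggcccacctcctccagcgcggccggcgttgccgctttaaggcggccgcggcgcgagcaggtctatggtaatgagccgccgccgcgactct
CELSR3, chr3:48700320-48700569, minus strand: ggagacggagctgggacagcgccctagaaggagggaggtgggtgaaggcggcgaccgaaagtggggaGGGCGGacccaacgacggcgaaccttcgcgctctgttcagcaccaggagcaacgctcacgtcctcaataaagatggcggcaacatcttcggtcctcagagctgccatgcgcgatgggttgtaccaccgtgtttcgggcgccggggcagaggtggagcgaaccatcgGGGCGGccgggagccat

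The FAT1 stretch was 78% G and C and held 2 GC boxes and 1 cyclic AMP response element. The stretch before the other FAT1 start, not printed, was 74% G and C, with 3 GC boxes and 0 response elements. Which start these cells use was not tested. Over 35116 RefSeq promoter windows cut to the same length, 42.6% held a GC box and 1.65% the response element. The CELSR2 and CELSR3 stretches held 1 and 2 GC boxes. None of the 3 stretches held the octamer ATGCAAAT, the motif class bound by POU factors, or GGAATG, the core of the TEAD motif, on either strand. These motifs occurred in 1.63% and 11.9% of all windows. A match is a description of the letters and not evidence of binding.

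FAT1 (ENSG00000083857) lies on the minus strand of chromosome 4 at 187508948 to 187647876 (GRCh37), and its canonical transcript runs over 14776 nt in 27 exons. No exon of another annotated gene overlaps it. Its counts numbered 21313, 22969 and 16906 for GFP (replicates 1, 2 and 3) and 3591, 3047 and 6527 for POU5F1B. As CPM, counts scaled to library size, these were 1792, 1746 and 1468 CPM with GFP and 282, 282 and 542 CPM with POU5F1B. All GFP libraries were high and all POU5F1B libraries low, and the lowest GFP library was still 2.71 times the highest POU5F1B library.

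The mean level of FAT1 was 1668 ± 175 CPM with GFP and 369 ± 150.3 CPM with POU5F1B (SD, n = 3), a 4.53-fold lower level with POU5F1B. The log2 fold change was -2.25 ± 0.25 (SE), and 97 of the 14286 tested genes had a lower one. Between libraries with the same replicate number, the GFP level was 6.36, 6.20 and 2.71 times the POU5F1B level. FAT1 was thus lower with POU5F1B at each number, by over 2-fold, as were 0.763% of all tested genes, a share given for scale only because this contrast chose FAT1. With replicates 1 and 2 alone the log2 fold change was -2.66, and over all 19 processing settings it stayed between -2.66 and -2.06.

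In GFP replicate 3 the FAT1 level was 83.0% of the mean of GFP replicates 1 and 2, the lowest of the GFP libraries. In POU5F1B replicate 3, where POU5F1B itself was lowest among the POU5F1B libraries, FAT1 was 1.92 times the mean of POU5F1B replicates 1 and 2. The library with the least POU5F1B thus had the most FAT1 within its group, which rests on 3 libraries. That library also differed in other genes, such as CDH17 with 24 counts against 0 and 1 in POU5F1B replicates 1 and 2. The POU5F1B level cannot be told apart from these differences, and a relation to FAT1 was not tested.

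**Figure D1:**
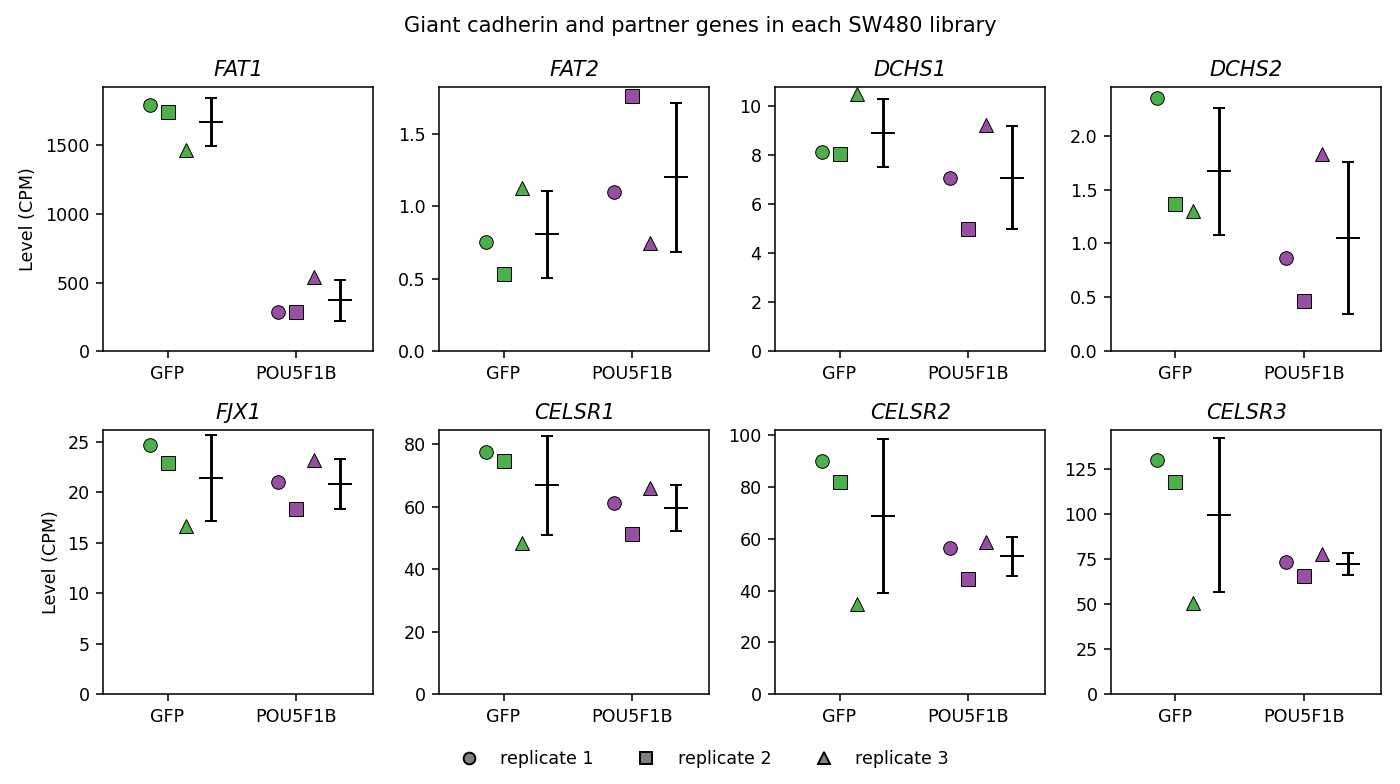
Level in CPM (vertical axis, starting at 0, a different range in each panel) of the 8 tested genes in each library, with symbols for replicate numbers and the bar and whiskers for the mean ± SD of 3 libraries. FAT1 sits at 1468 to 1792 CPM with GFP and 282 to 542 CPM with POU5F1B, whereas in each of the other panels the groups overlap.

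FAT1 was also given as a share of each whole library, which scales by total counts only. It took 0.180%, 0.180% and 0.137% of all counts in GFP replicates 1, 2 and 3, which made it the gene of rank 33, 33 and 48 by counts. In the POU5F1B replicates it took 0.0284% (95% Wilson interval 0.0275 to 0.0294%), 0.0283% (0.0273 to 0.0293%) and 0.0557% (0.0544 to 0.0571%), at ranks 560, 574 and 211. These intervals cover counting error only. Among the counts of the 10 genes together, FAT1 made up 84.3%, 85.1% and 90.0% in GFP, and 56.1%, 60.1% and 69.5% in POU5F1B cells, with intervals of 54.9 to 57.3%, 58.7 to 61.4% and 68.6 to 70.5% for the POU5F1B libraries. The ratio of FAT1 to FJX1 counts was 72.5, 76.3 and 88.5 with GFP and 13.4, 15.4 and 23.4 with POU5F1B. The groups were apart in these shares and ratios too. They describe the same FAT1 counts by which the gene was chosen and add no test.

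Markers of other cell types were read beside FAT1. COL1A1, the alpha 1 chain of the fibrillar collagen of connective tissue, had 141, 118 and 16.8 CPM with GFP and 6.75, 5.55 and 9.47 CPM with POU5F1B. The summed level of the 6 fibroblast markers was 27.3 to 171 CPM with GFP and 13.4 to 22.5 CPM with POU5F1B, with COL3A1 at 0 counts in all libraries. DCN and LUM had 3 and 34 counts in GFP replicate 3, 1 and 5 in POU5F1B replicate 3, and 0 elsewhere. COL1A1 and PDGFRB were the 2 fibroblast markers that could be tested, and 0 passed the threshold with all libraries, as did 0% of all tested genes. With replicates 1 and 2 only, both were past it and lower, the direction of FAT1, beside 8.36% of all genes in either direction. Immune markers summed to at most 1.6 CPM, with CD68 at 0 in all libraries. The endothelial markers VWF and CDH5, which were 2 of 3 listed, summed to 1.22 to 6.51 CPM. In GFP replicate 3, COL1A1 stood close to the POU5F1B libraries while FAT1 did not, and the part of these markers in the FAT1 result was not tested.

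Among epithelial markers, of which 0 of 8 tested passed the threshold with limma voom, the adhesion protein EPCAM had 86.6, 89.2 and 518 CPM with GFP and 319.6, 330.1 and 252 CPM with POU5F1B, so that GFP replicate 3 was the highest of all. With replicates 1 and 2 only, 3 of the 8 were past the threshold and higher and 0 lower, beside 8.36% of all genes in either direction. At an adjusted p under 0.05 alone, that fit had 5 higher and 1 lower by limma voom, beside 14.1% and 15.5% of all genes. With all libraries, 6 of the 8 were higher and 2 lower, KRT20 at -0.31 and CDX2 at -0.32 on the log2 scale. The summed level of the 9 epithelial markers was 6352 to 9565 CPM with GFP and 7891 to 8912 CPM with POU5F1B, and these ranges overlapped. E-cadherin (CDH1), the classical epithelial cadherin, is described with the other cadherins.

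**Figure D2:**
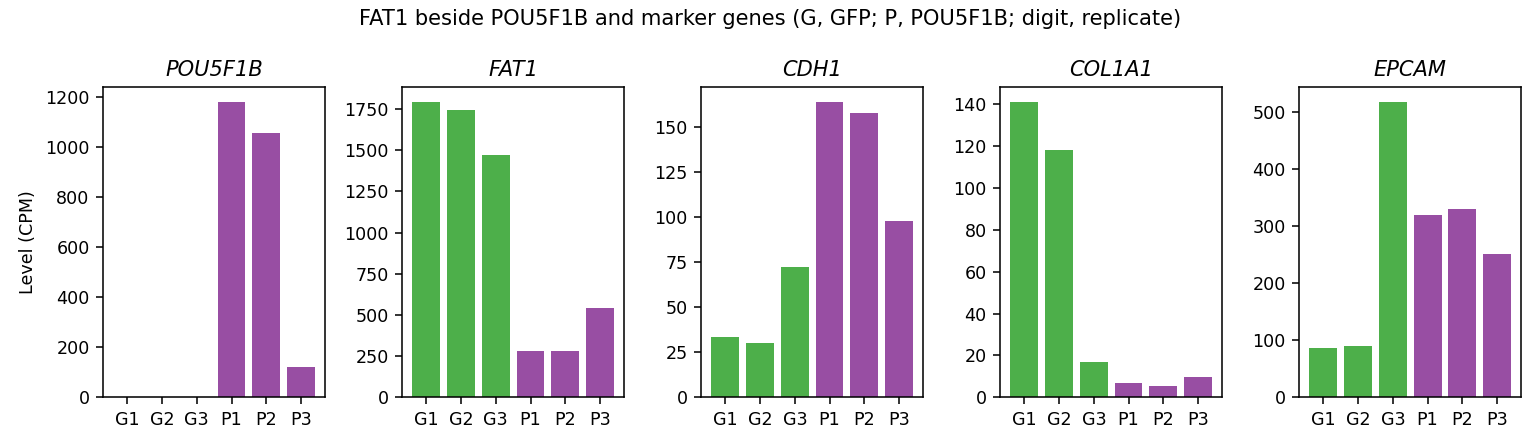
Level in CPM (bars from 0) of POU5F1B, FAT1, CDH1, COL1A1 and EPCAM in the 3 GFP (G1 to G3) and 3 POU5F1B (P1 to P3) libraries. The groups do not overlap for POU5F1B, FAT1, CDH1 and COL1A1, as for 19.4% of all tested genes in either direction. GFP replicate 3 has 16.8 CPM of COL1A1, nearer to the POU5F1B libraries than to GFP replicates 1 and 2. It has 518 CPM of EPCAM, above all others.

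FAT1 was the only abundant FAT gene in these cells. FAT2 (chromosome 5, 150883653 to 150970892, minus strand), a FAT protein of epidermal and cerebellar cells, had 9, 7 and 13 counts in GFP and 14, 19 and 9 in POU5F1B libraries. Its groups overlapped, and the log2 fold change was 0.53 ± 0.46 (SE; 95% interval -0.56 to 1.63; limma voom adjusted p = 0.676). FAT2 shares 596 bases of exon with a gene on the opposite strand, and the strand setting of the counting was not stated, so its few counts are uncertain. FAT3, a FAT gene of the nervous system, had 2 counts in POU5F1B replicate 2 and 0 in the other 5 libraries. FAT4 (chromosome 4, 126236073 to 126414087), the partner of DCHS1 in mammals, had 0 counts in all 6 libraries. A floor of 3 counts corresponds to 0.228 to 0.277 CPM here, so FAT3 and FAT4 were not detectable at this depth.

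The Dachsous genes encode the cadherins that bind FAT proteins on the next cell. DCHS1 (minus strand of chromosome 11, 6642561 to 6677040) had 97, 106 and 121 counts in GFP and 90, 54 and 111 in POU5F1B libraries. The levels were 8.91 ± 1.39 and 7.09 ± 2.11 CPM (SD, n = 3), the groups overlapped, and the difference of -0.35 ± 0.27 (SE, log2) was within the spread between libraries (95% interval -1.0 to 0.31; limma voom adjusted p = 0.653). DCHS1 was lower at each of the 3 replicate numbers, by 0.20, 0.67 and 0.19 on the log2 scale, as were 17.8% of tested genes. Antisense genes share 1107 bases of its exons, so part of its counts could come from the other strand.

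DCHS2 (minus strand of chromosome 4, 155152894 to 155412951) had 28, 18 and 15 counts in GFP and 11, 5 and 22 in POU5F1B libraries. The low values were those of POU5F1B replicates 1 and 2, while POU5F1B replicate 3 lay inside the GFP range. Its log2 fold change was -0.78 ± 0.52 (SE; 95% interval -2.03 to 0.47; limma voom adjusted p = 0.594). With replicates 1 and 2 only it was -1.41 and passed the threshold (limma voom adjusted p = 0.0440), on at most 28 counts per library.

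FJX1 (chromosome 11, 35640008 to 35642413, plus strand) encodes the Four-jointed kinase in a single exon. It had 294, 301 and 191 counts in GFP and 267, 198 and 279 in POU5F1B libraries, and GFP replicate 3 was the lowest of all. The levels were 21.4 ± 4.27 and 20.8 ± 2.44 CPM (SD, n = 3), and the fitted difference was -0.03 ± 0.21 on the log2 scale (SE; adjusted p = 0.976 by limma voom). The 95% interval of -0.52 to 0.46 shows how large a change in either direction these libraries could have missed. Its sign changed with total counts and upper quartile scaling.

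The 3 CELSR genes ranked after FAT1 among the cadherins of the set. CELSR3 (chromosome 3, 48673896 to 48700319, minus strand), known for its role in guiding axon tracts, had 130.0, 118 and 50.6 CPM with GFP and 73.4, 65.5 and 78 CPM with POU5F1B. CELSR2 (chromosome 1, 109792161 to 109818373, plus strand), which acts in ependymal cilia and neurons, had 90.0, 81.9 and 34.7 CPM with GFP and 56.3, 44.6 and 58.8 CPM with POU5F1B. CELSR1 (chromosome 22, 46756731 to 46933517, minus strand), the epithelial member that acts in neural tube closure and hair follicle polarity, had 77.3, 74.6 and 48.5 CPM with GFP and 61.0, 51.3 and 65.8 CPM with POU5F1B. In each of the 3 genes, GFP replicates 1 and 2 were the highest libraries and GFP replicate 3 the lowest, so that the POU5F1B libraries lay between them.

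Owing to this spread, no CELSR gene differed beyond its replicates by limma voom with all libraries and without sample quality weights. The log2 fold changes were -0.15 ± 0.21 for CELSR1, -0.27 ± 0.37 for CELSR2 and -0.35 ± 0.36 for CELSR3 (SE), with limma voom adjusted p-values of 0.817, 0.808 and 0.724. Their 95% intervals reached from -0.65 to 0.36, from -1.15 to 0.61 and from -1.20 to 0.49, so that a fall of around 2-fold in CELSR2 or CELSR3 lay within reach of the data. At replicate numbers 1 and 2 the 3 genes were lower with POU5F1B, by 0.34 and 0.54 (CELSR1), 0.67 and 0.88 (CELSR2), and 0.82 and 0.84 (CELSR3) on the log2 scale. At replicate number 3 they were higher by 0.44, 0.76 and 0.62.

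The sign turned at the number of GFP replicate 3, whose CELSR2 and CELSR3 levels were 40.4% and 40.9% of the mean of GFP replicates 1 and 2. Of all tested genes, 8.63% were below 50% of the lower of these replicates, and CELSR2 and CELSR3 were the 2 of the 8 tested genes of the set that were. With replicates 1 and 2 only, 5 of the 8 had an adjusted p under 0.05 in the lower direction by limma voom (FAT1, DCHS2, CELSR1, CELSR2 and CELSR3) and 0 in the higher direction, where 15.5% of all tested genes were called lower and 14.1% higher. The 5 include FAT1, which this contrast chose, so the count is no test of the set. Replicates 1 and 2 were the most alike libraries of each group, so p-values of this fit reflect a smaller spread than that of all libraries. In that fit, CELSR2 gave -0.78 on the log2 scale (adjusted p = 0.000480 by limma voom) and CELSR3 gave -0.84 (7.13e-05), both under a 2-fold change. The same fit gave 1.06 for FAT2, -0.44 for DCHS1 and -0.28 for FJX1, with adjusted p-values of 0.107, 0.168 and 0.168 by limma voom. Without GFP replicate 3 alone, CELSR2 and CELSR3 gave -0.70 and -0.79, with limma voom adjusted p-values of 0.0211 and 0.00828.

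CELSR2 and CELSR3 kept a near constant proportion to each other. CELSR2 had 0.692, 0.697 and 0.686 counts per count of CELSR3 in GFP and 0.768, 0.681 and 0.754 in POU5F1B libraries, while the level of each varied over 2-fold. In contrast, CELSR1 had 0.594, 0.635 and 0.959 counts per count of CELSR3 in GFP and 0.784 to 0.843 in POU5F1B libraries. The ratio of FAT1 to CELSR3 was 13.8, 14.9 and 29.0 in GFP against 3.84, 4.30 and 6.95 in POU5F1B libraries, and these ranges did not overlap.

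**Figure D3:**
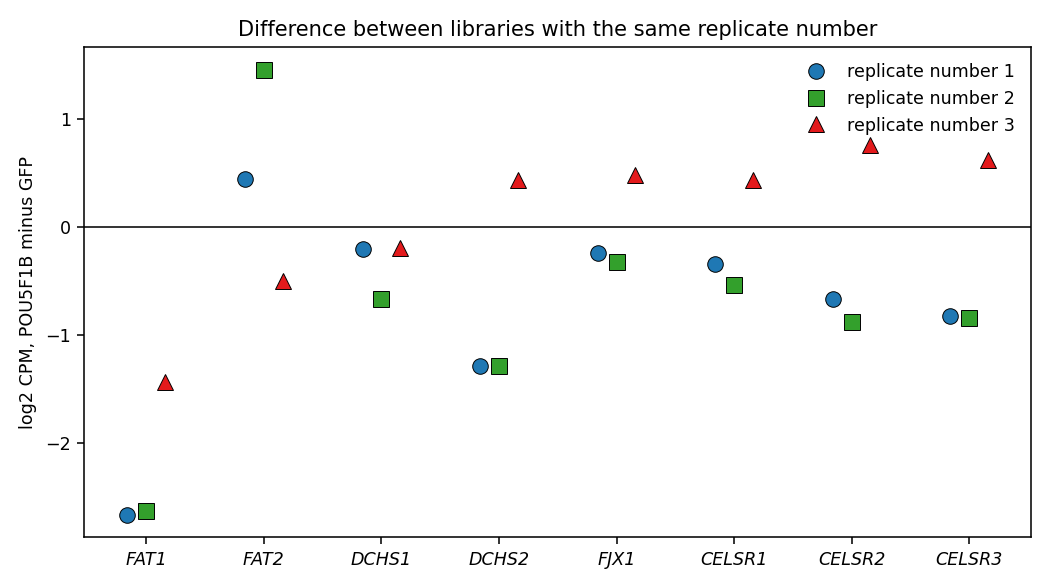
Log2 CPM of the POU5F1B library minus the GFP library with the same replicate number (vertical axis), for the 8 tested genes, with 1 symbol for each number. FAT1 lies at -2.67, -2.63 and -1.44, and DCHS2, FJX1, CELSR1, CELSR2 and CELSR3 lie below 0 at numbers 1 and 2 and above 0 at number 3.

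Across the set, 0 of the 8 tested genes passed the threshold of an adjusted p under 0.05 and a 2-fold change by limma voom with all libraries, where 0% of all tested genes passed. The edgeR quasi-likelihood test called 0 as well, and DESeq2 called 1, FAT1, where it called 1.63% of genes. At an unadjusted p under 0.05 there was 1 gene of the set, again FAT1, beside 11.9% of all genes, 5.82% lower and 6.07% higher. The groups did not overlap for 1 of the 8 genes, FAT1, lower with POU5F1B, beside 9.24% of all tested genes in that direction. Because this contrast chose FAT1, its place in these counts is no test of the set. The median log2 fold change was -0.31 over the 8 genes and -0.27 over the 7 without FAT1, against -0.02 over all tested genes. Of the 8 genes, 5 were lower at numbers 1 and 2 and higher at 3, a pattern of 20.2% of all tested genes.

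The number of genes of the set past the threshold was read beside the share of all genes under other settings. It was 2 with replicates 1 and 2 only (FAT1 and DCHS2; 8.36% of all genes), and 1, FAT1, with sample quality weights (7.54%), without GFP replicate 3 (4.16%), without POU5F1B replicate 3 (0.0350%) and with no filter (0.0150%). It was 0 with the replicate number as a block, with the GC and length correction, and with both (0.00700% each). Without GFP replicate 3, 3 genes of the set were lower at an adjusted p under 0.05 by limma voom (FAT1, CELSR2 and CELSR3, beside 7.02% of all genes) and 0 higher (5.07%). Every count here that is not 0 includes FAT1, which was chosen by this contrast, so these counts do not test the set.

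Levels were compared between genes per kilobase of canonical transcript. FAT1 had 113 ± 11.9 CPM per kb in GFP cells (SD, n = 3), 12.7 times the next gene, FJX1, with 8.89 ± 1.77. CELSR3 (8.33 ± 3.58), CELSR2 (6.26 ± 2.71) and CELSR1 (5.78 ± 1.37) followed, and the mean ± SD ranges of neighbours from FJX1 to CELSR1 overlapped. DCHS1 (0.831 ± 0.129), DCHS2 (0.125 ± 0.0441) and FAT2 (0.0548 ± 0.0205) came last. In POU5F1B cells FAT1 remained first with 24.9 ± 10.2 CPM per kb, 2.88 times FJX1 with 8.65 ± 1.01. It was followed by CELSR3 (6.06 ± 0.531), CELSR1 (5.14 ± 0.638) and CELSR2 (4.83 ± 0.691), while FAT2 (0.0817 ± 0.0348) and DCHS2 (0.0787 ± 0.0525) did not differ beyond their spread.

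Because these transcripts are very long, FAT1 was set beside other long transcripts. Of 526 tested genes with a canonical transcript of at least 10 kb, 361 (68.6%) had a log2 fold change below 0, with a median of -0.19, against 53.1% and -0.02 over all genes. Their median differences were near 0 at replicate numbers 1 and 2 and -0.29 at number 3. FAT1 was lower by -2.67, -2.63 and -1.44 at these numbers, and 9 of the 526 genes had a lower log2 fold change. With log2 counts corrected for GC content and length, FAT1 had -2.08 and CELSR3 -0.20. The neighbours of FAT1 on the chromosome were read too. Within 2 Mb on either side, 15 other genes were tested, 9 lower and 6 higher. Their median log2 fold change was -0.05 and the range -1.06 to 0.72, and that of FAT1 was below each of them. This contrast chose FAT1, so its place among long transcripts and among neighbours is a description. Whether transcript length or the chromosome region had a part in the FAT1 difference was not tested.

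**Figure D4:**
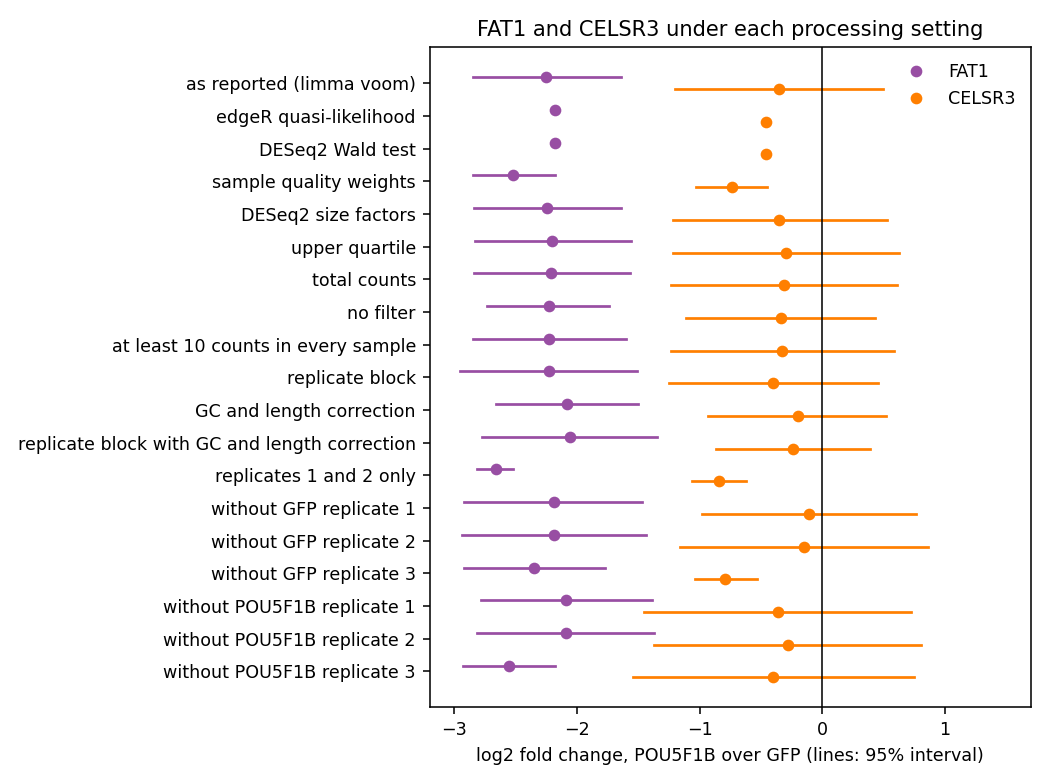
Log2 fold change of POU5F1B over GFP (horizontal axis) for FAT1 and CELSR3 under each processing setting, with lines for the 95% interval of limma voom; edgeR and DESeq2 are shown as points only. FAT1 stays between -2.66 and -2.06, whereas CELSR3 runs from -0.84 to -0.11 and is farthest from 0 in the settings that remove or weigh down GFP replicate 3.

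Other cadherins were read from a list of 39 genes, of which 38 were matched and 14 tested. None passed the threshold (limma voom; 0 with edgeR and 3 with DESeq2, beside 1.63% of all genes). At an unadjusted p under 0.05 by limma voom, 4 were higher and 1 lower, beside 6.07% and 5.82% of all genes, and the median log2 fold change was -0.09 beside -0.02 over all genes. CDH11, a cadherin of mesenchymal cells, had 46.7, 41.7 and 37.2 CPM with GFP and 1.96, 0.925 and 14.1 CPM with POU5F1B (-3.77 ± 0.73 SE on the log2 scale; adjusted p = 0.200 by limma voom). CDH1 had 33.6, 30.1 and 72.6 CPM with GFP and 164, 158 and 98.1 CPM with POU5F1B (1.71 ± 0.36 SE; adjusted p = 0.207 by limma voom). CDH3, the P-cadherin of basal epithelium, had 21.9, 17.7 and 29.5 CPM with GFP and 76.7, 69.1 and 39.1 CPM with POU5F1B (1.4 ± 0.33 SE; limma voom adjusted p = 0.230). These 3 genes were named for their small p-values. Over the 14 tested cadherins of the list, the groups did not overlap for 5 higher and 2 lower genes, beside 10.2% and 9.24% of all genes.

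The partners of the FAT cytoplasmic tail, 17 genes of which 16 were tested, were lower for 15 and higher for 1, at a median of -0.18 on the log2 scale, and 0 passed the threshold with limma voom, edgeR or DESeq2. Over all tested genes, 53.1% were lower. At an unadjusted p under 0.05, 3 were lower and 1 higher, beside 5.82% and 6.07% of all genes. The higher one was CTNNB1, the adherens junction and Wnt effector beta-catenin, with 1014 ± 82.5 CPM with GFP and 1287 ± 59.7 CPM with POU5F1B (SD, n = 3; 0.35 ± 0.10 SE; limma voom adjusted p = 0.285). EVL, an Ena/VASP protein that speeds actin filament growth, had 29.8, 26.9 and 17.3 CPM in GFP against 8.08, 7.49 and 17.3 CPM in POU5F1B cells, so that replicate 3 was level in both (adjusted p = 0.300, limma voom). LIX1 had 2.69, 1.6 and 2.52 CPM with GFP and 0, 0.370 and 1.58 CPM with POU5F1B (limma voom adjusted p = 0.356).

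The planar cell polarity list, which holds the partners of CELSR proteins, had 19 tested genes of 21 listed, 8 higher and 11 lower, with a median log2 fold change of -0.09. None passed the threshold with limma voom or edgeR and 3 did with DESeq2 (1.63% of all genes), while 3 higher and 2 lower genes had an unadjusted p under 0.05, beside 6.07% and 5.82% of all genes. PRICKLE2, a cytoplasmic polarity protein, had 26.3, 22.7 and 12.9 CPM with GFP and 5.89, 2.87 and 4.15 CPM with POU5F1B (-2.24 ± 0.40 SE; limma voom adjusted p = 0.185). WNT5A, a ligand of noncanonical Wnt signalling, had 372, 329 and 124 CPM with GFP and 77.9, 81.8 and 93.7 CPM with POU5F1B (-1.56 ± 0.42 SE; limma voom adjusted p = 0.270). WNT11, another such ligand, had 2.44, 2.43 and 2.0 CPM with GFP and 4.94, 4.35 and 6.06 CPM with POU5F1B (1.14 ± 0.25 SE; limma voom adjusted p = 0.220).

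The Hippo list of kinases, YAP cofactors and YAP targets had all 28 genes tested, 13 higher and 15 lower, with a median of -0.04. None passed with limma voom or edgeR and 2 passed with DESeq2 (1.63% of all genes), and 1 higher and 2 lower genes had an unadjusted p under 0.05, beside 6.07% and 5.82% of all genes. AMOTL1, an angiomotin that binds YAP at junctions and actin, had 113, 117 and 40.1 CPM with GFP and 1.73, 2.59 and 4.40 CPM with POU5F1B (-4.90 ± 0.75 SE; limma voom adjusted p = 0.185). FRMD6, a FERM-domain protein upstream of the kinases, had 155, 148 and 42.9 CPM with GFP and 26.1, 25.9 and 26.2 CPM with POU5F1B (-1.94 ± 0.57 SE; limma voom adjusted p = 0.294). AMOT, the founding angiomotin, had 4.12, 3.65 and 1.22 CPM with GFP and 8.32, 7.21 and 4.24 CPM with POU5F1B (1.24 ± 0.50 SE; limma voom adjusted p = 0.403).

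To place the pattern of FAT1 among other genes, log2 CPM over the 6 libraries was correlated with that of FAT1 for 9717 tested genes with a mean of at least 10 CPM, as a description over libraries that also share the group difference. The most alike was ITGA1, the integrin alpha 1 chain of collagen receptors (r = 0.9986), with 152, 161 and 111 CPM with GFP and 6.36, 7.68 and 19.2 CPM with POU5F1B. TULP4, NSD1, HDLBP and MFHAS1 followed (r from 0.9961 to 0.9973). The most opposite were CHAF1B (r = -0.9982), GPRC5A, XPO7, DNTTIP1 and PLP2. Of the 9717 genes, 309 had r above 0.9 and 342 below -0.9. Within the set, the values were 0.24 for FJX1, 0.43 for CELSR1, 0.38 for CELSR2 and 0.46 for CELSR3, so none of these 4 followed FAT1 closely.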

How the data were processed

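The authors deposited 1 table of raw read counts per Ensembl gene for each library. Per the study's methods, reads were mapped to hg19 with hisat2 and counted with featureCounts, with genes and transposable elements in one annotation and uniquely mapped reads only. The strand setting is not given in the sources used here. Symbols were matched for 87.4% of 63677 identifiers, and coordinates come from GENCODE mapped to GRCh37, the same build.

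Genes with low counts were removed by filterByExpr (edgeR 4.0.16). TMM scaling, voom and limma 3.58.1 (R 4.3.3), which the study's methods name, gave the fold changes and p-values; p was adjusted by Benjamini-Hochberg across the 14286 genes left, and replicate numbers were not modelled. CPM uses TMM-scaled library sizes, and log2 CPM a prior count of 2. DESeq2 1.42.0 was among the alternatives. The study names SW480 among the settings with enough upregulated genes for annotation terms, at a fold change above 2 and p under 0.05. Here 0 of the 14286 genes passed by limma voom with all libraries, and the source of that difference was not tested. The fits were first tested on simulated counts. For the GC and length correction, 97.3% of these genes had both values, and splines had 5 degrees of freedom. The members, gene lists and tests were chosen with earlier results of these data known. Named are POU5F1B, marker genes beside FAT1, all 10 members, the 3 genes with the smallest p-values in each list, and the 5 genes most and least like FAT1.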

Additional observations from a re-analysis of the deposited data

How the results depend on the processing

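The count of tested genes of the set past the threshold was 0 in the limma voom fit described above. It was 1, FAT1, with DESeq2, with sample quality weights and with no filter, and 2 with replicates 1 and 2 only (FAT1 and DCHS2). The planar cell polarity count was 3 with DESeq2, 4 with quality weights and 3 with replicates 1 and 2 only; the Hippo count was 2, 3 and 3, the count of other cadherins 3, 5 and 6, and that of FAT cytoplasmic partners 2 with quality weights and 2 with replicates 1 and 2 only. Leaving out 1 library each gave 0 to 1 for the set, 0 to 4 for planar cell polarity, 0 to 3 for Hippo, 0 to 1 for FAT partners and 0 to 4 for other cadherins. Each of these came without GFP replicate 3, apart from 1 for the set also without POU5F1B replicate 3, and the cause was not tested. The quality weight of GFP replicate 3 was 0.111. With the replicate number as a block, with and without the GC and length correction, all these counts were 0. Deviations of same-numbered libraries correlated at 0.242, 0.0883 and 0.165, and GFP replicate 2 correlated best with POU5F1B replicate 1 (0.250), so the numbers were not taken to pair the libraries. FJX1 changed sign with upper quartile (0.028) and total counts (0.017) and ranged from -0.203 to 0.084 when 1 library was left out. CELSR1 changed sign with the GC and length correction (0.011) and with that and the block (0.005). FAT1, FAT2, DCHS1, DCHS2, CELSR2 and CELSR3 had the same sign wherever they were tested. Scaling moved the median of all genes by at most 0.05 on the log2 scale. Genes under 30 counts per library, FAT2 and DCHS2, are limited by depth.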
